A study of Homo sapiens with 208 samples.

Results

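The genes described here are 31 genes of sterol and fatty acid synthesis and of its control, taken from a fixed list of targets and regulators of the sterol regulatory element-binding proteins (SREBPs). Of the 31 genes, 30 had a probe that could be matched by its RefSeq accession, and 29 of these were bright enough to be tested, among 13276 genes tested in all. STARD4, a sterol carrier protein, was well above background on 2 of 208 arrays and was not tested, and ACLY, the enzyme that makes cytosolic acetyl-CoA from citrate, was not analysed here. The expression values come from 208 one-colour arrays of 2 human lung adenocarcinoma cell lines. PC9 carries an activating deletion in EGFR and is sensitive to gefitinib, an inhibitor of the EGFR kinase. PC9GRM2 was derived from PC9 by repeated gefitinib exposure, is 1 clone, and lacks both the common secondary EGFR mutation and MET amplification. All cells were starved for 48 h and then left untreated, given 100 ng/ml EGF, given 0.5 uM gefitinib, or given both, with gefitinib added ahead of EGF, which marks 0 h. Each of the 8 courses holds 26 time points from 0 to 24 h with 1 array each, and there are no replicate arrays. The 26 time points stand in for replicates, so the p-values measure the spread of matched-time differences within 1 series of cultures.

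Cells make cholesterol from acetyl-CoA through mevalonate, farnesyl pyrophosphate, squalene and lanosterol, and make fatty acids from the same acetyl-CoA through malonyl-CoA. The SREBPs are membrane-bound transcription factors that SCAP carries from the endoplasmic reticulum to the Golgi when sterols are low, where proteases release their active part, while the INSIG proteins hold SCAP back when sterols are high. The released factors bind sterol regulatory elements in promoters of both pathways, together with NF-Y, which binds CCAAT, and Sp1, which binds GC boxes.

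The promoters below belong to the genes that were at least 2-fold lower with gefitinib in PC9GRM2 and that have a promoter in the sequence table used here, and to SREBF2, whose promoter was the only one among the listed genes to hold the sterol element core searched. Each is the 250 bases before the transcription start, read 5′ to 3′ along the gene in build GRCh38.p14 and taken from RefSeq, and capitals mark matches on either strand to TCACNCCAC, CCAAT or GGGCGG. For a gene with several starts, the promoter with the most CCAAT matches was chosen for display. Another IDI1 promoter, not shown, had GGGCGG but no CCAAT match. The LSS promoter is at chr21:46228775-46229024, minus strand, that of IDI1 at chr10:1048887-1049136, minus strand, that of SC5D at chr11:121292521-121292770, plus strand, that of MSMO1 at chr4:165327419-165327668, plus strand, and that of SREBF2 at chr22:41832855-41833104, plus strand.
LSS: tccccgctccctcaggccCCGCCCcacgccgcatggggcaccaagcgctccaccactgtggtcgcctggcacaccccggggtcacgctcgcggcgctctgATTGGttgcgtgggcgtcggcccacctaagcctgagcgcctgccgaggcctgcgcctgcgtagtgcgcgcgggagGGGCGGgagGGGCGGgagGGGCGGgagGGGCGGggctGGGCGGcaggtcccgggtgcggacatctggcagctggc
IDI1: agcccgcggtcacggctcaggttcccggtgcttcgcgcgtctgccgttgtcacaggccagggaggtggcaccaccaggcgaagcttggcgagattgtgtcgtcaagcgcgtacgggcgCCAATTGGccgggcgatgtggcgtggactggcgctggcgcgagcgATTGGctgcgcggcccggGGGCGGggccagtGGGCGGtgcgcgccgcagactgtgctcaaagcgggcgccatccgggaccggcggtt
SC5D: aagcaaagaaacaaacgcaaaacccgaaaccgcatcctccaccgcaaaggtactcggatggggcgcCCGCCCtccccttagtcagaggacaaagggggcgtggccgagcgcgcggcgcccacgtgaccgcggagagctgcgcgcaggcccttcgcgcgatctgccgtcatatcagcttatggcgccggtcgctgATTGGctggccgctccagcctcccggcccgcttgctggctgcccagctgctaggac
MSMO1: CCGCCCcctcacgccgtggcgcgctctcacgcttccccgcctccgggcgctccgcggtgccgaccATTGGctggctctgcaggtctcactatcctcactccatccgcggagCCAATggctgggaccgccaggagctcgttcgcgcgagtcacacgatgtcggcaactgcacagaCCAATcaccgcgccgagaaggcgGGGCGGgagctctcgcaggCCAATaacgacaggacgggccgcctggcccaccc
SREBF2: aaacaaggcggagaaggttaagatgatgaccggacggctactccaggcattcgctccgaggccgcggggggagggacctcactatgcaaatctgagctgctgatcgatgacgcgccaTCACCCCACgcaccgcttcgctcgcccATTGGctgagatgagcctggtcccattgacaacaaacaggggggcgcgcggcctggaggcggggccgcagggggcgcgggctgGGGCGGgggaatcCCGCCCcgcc

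Of the 31 listed genes, 27 matched the promoter table, with 38 promoters, since some genes have several start sites. CCAAT stood in 60.5% of these promoters and in 32.0% of the 35116 promoters of all genes, and GGGCGG stood in 89.5% against 42.6%. TCACNCCAC stood in 1 promoter of the listed genes, which is 2.63%, against 0.883% of all promoters. The promoters of the listed genes had a median GC content of 68.6%, against 58.0% for all promoters. GGGCGG holds only G and C, while CCAAT also holds A and T. The part of base composition in the motif shares was not tested. These are matches of letters within 250 bases and are not evidence that a factor was bound. In the IDI1 promoter the CCAAT match and its reverse complement overlap.

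The number of features well above background ran from 24464 to 35938 an array (median 29879). Each slide carried the 4 treatments of a line at a time point, so that every matched-time difference between treatments was taken within 1 of 52 slides, but a treatment always sat at the same position and the 2 cannot be told apart. No slide and no scan day held both lines (0 of each), and line and scan period cannot be told apart. Up to 1616 features were saturated on a PC9 array and 0 on the PC9GRM2 arrays. Among the listed genes, the DHCR7 probe was saturated on 26 of 26 untreated PC9 arrays and the FDPS probe on 25 of 26, so that both have only a bound in that course. The 6 epithelial markers, among them EPCAM and KRT18, were well above background on 208 of 208 arrays. Of the lung lineage markers, NKX2-1 was well above background on 13 arrays, SFTPB on 89 and NAPSA on 207. Of 5 fibroblast markers, 4 had a matched probe and 0 passed the brightness filter. Of the leukocyte markers, CD68 was well above background on 208 arrays, CD3E on 84 and PTPRC on 26, and of the endothelial markers PECAM1 was on 207 and CDH5 on 34, and their part in the results was not tested. In RNA of whole cultures, a lower level per cell and fewer cells with the gene on cannot be told apart. Over all tested genes, the 3 arrays that stood most apart from their neighbours in time were singled out, where 3 was a set count. They were untreated PC9GRM2 at 11 h, PC9 with gefitinib at 16 h and untreated PC9 at 18 h. Their root mean square distances were 1.03, 0.86 and 0.813, against a median of 0.405. The next array, PC9 with gefitinib at 14 h, stood at 0.784, so no gap set the 3 off. Without these time points the counts of genes called with gefitinib were 27 in PC9GRM2 and 18 in PC9, against 27 and 19 with them, and 22 against 21 for the difference between the lines.

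With gefitinib, sterol and fatty acid synthesis genes were lower in PC9GRM2 across nearly the whole list. The difference between the gefitinib and the untreated course passed the test for 27 of 29 genes, 25 lower and 2 higher. By the probe used, 5 genes were at least 2-fold lower. Over all tested genes 66.7% passed, with 34.1% lower and 32.6% higher, and 3.87% were at least 2-fold lower. The median over the 29 genes was -0.74 on the log2 scale, against -0.01 over all tested genes. All 7 mevalonate genes and all 9 genes from squalene to cholesterol were lower, with medians of -0.95 and -0.83, as were 7 of 8 fatty acid genes, with a median of -0.68. Of the 5 regulators, 2 were lower and 1 was higher.

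IDI1, which interconverts the isoprenoid building blocks made from mevalonate, had a lowest, median and highest log2 signal of 12.08, 14.06 and 15.65 over the untreated PC9GRM2 course and of 11.44, 12.52 and 13.76 with gefitinib. The courses overlapped, but at matched times the gefitinib array was the lower at 25 of 26 time points, by a mean of 1.28 (log2 difference -1.28 ± 0.12 SE, n = 26, limma adjusted p = 2.1e-10). LSS, which closes squalene epoxide into lanosterol and whose CCAAT-bearing promoter is given above, ran at 5.30, 7.47 and 8.13 untreated and at 4.75, 5.98 and 6.71 with gefitinib. It was lower at 26 of 26 time points (-1.31 ± 0.12, limma adjusted p = 2.16e-10), a 2.48-fold difference. IDI1 and LSS were the pair with the lowest values among the 29 genes. The other LSS probes gave -1.28, -1.05 and, for the brightest, -0.96. SC5D, a late desaturase of the pathway, ran at 9.77, 11.44 and 11.83 untreated and at 9.24, 9.80 and 10.66 with gefitinib, and it was 2.39-fold lower (-1.25 ± 0.13, lower at 25 of 26). A brighter SC5D probe gave -1.12 and a dimmer one -0.61. ACAT2, the thiolase that joins acetyl-CoA units at the entry of the pathway, was 2.18-fold lower (-1.12 ± 0.12, lower at 26 of 26). Its brighter probe gave -0.78, so for LSS and ACAT2 the 2-fold size rested on the probe. MSMO1, which oxidises methyl groups of lanosterol derivatives, was 2.07-fold lower (-1.05 ± 0.14, lower at 23 of 26), and its untreated course spanned 9.12 to 14.44, with the highest value on the array at 11 h. That array stood most apart from its neighbours in time. The MSMO1 differences ran from -2.78 to 0.33, so its place just past the 2-fold limit may rest on that array.

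The steps between and after these enzymes had smaller differences. HMGCS1, which makes HMG-CoA, differed by -0.95, MVD, which decarboxylates phosphorylated mevalonate, by -0.99, MVK by -0.67 and FDPS by -0.67, while PMVK differed by -0.23 (limma adjusted p = 0.00961). FDFT1 and SQLE, which make squalene and its epoxide, differed by -0.86 and -0.83, EBP by -0.78, DHCR7, the enzyme of the final step to cholesterol, by -0.60, CYP51A1 by -0.56 and NSDHL by -0.52. In fatty acid synthesis, SCD, which introduces the double bond of oleate, differed by -0.88, the desaturase FADS1 by -0.81, ACSS2, which makes acetyl-CoA from acetate, by -0.79, FASN, the fatty acid synthase, by -0.74, ACACA, which makes malonyl-CoA, by -0.62, the acyl-CoA synthetase ACSL3 by -0.54 and the elongase ELOVL6 by -0.20. Each of these passed the test.

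FADS2 and INSIG2 were higher with gefitinib in both lines. FADS2, the desaturase that acts ahead of FADS1, had log2 signals of 11.03, 11.45 and 12.07 over untreated PC9 and of 11.35, 11.96 and 12.61 with gefitinib, and was higher at 26 of 26 time points (0.51 ± 0.05, limma adjusted p = 5.38e-10). In PC9GRM2 it ran at 10.60, 11.20 and 11.76 untreated and at 10.73, 11.59 and 11.85 with gefitinib (0.26 ± 0.06, higher at 22 of 26, limma adjusted p = 0.000131). A second, dimmer FADS2 probe gave -0.13 and -0.07, so the direction rests on the probe used. INSIG2, a retention protein of SCAP, was higher by 0.43 ± 0.07 in PC9 (23 of 26, limma adjusted p = 6.46e-06) and by 0.20 ± 0.08 in PC9GRM2 (16 of 26, limma adjusted p = 0.0379), where its other probe gave -0.09 and 6 of the alternative settings ended the call. INSIG1, the other retention protein and a known SREBP target, was lower in both lines, by 0.39 in PC9 (log2 difference -0.39) and by 0.92 in PC9GRM2 (-0.92). The INSIG1 call was lost under 3 alternatives in PC9 and 2 in PC9GRM2. The first 13 time points and a variance inflated for the likeness of successive time points were among these in both lines. SREBF1, which encodes SREBP-1, differed by 0.09 in PC9 without passing the test and was lower in PC9GRM2 (-0.39, limma adjusted p = 0.00344). SREBF2, which encodes SREBP-2, and SCAP passed the test in neither line, with differences of 0.10 and -0.06 in PC9 and of -0.15 and 0.09 in PC9GRM2.

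**Figure D1:**
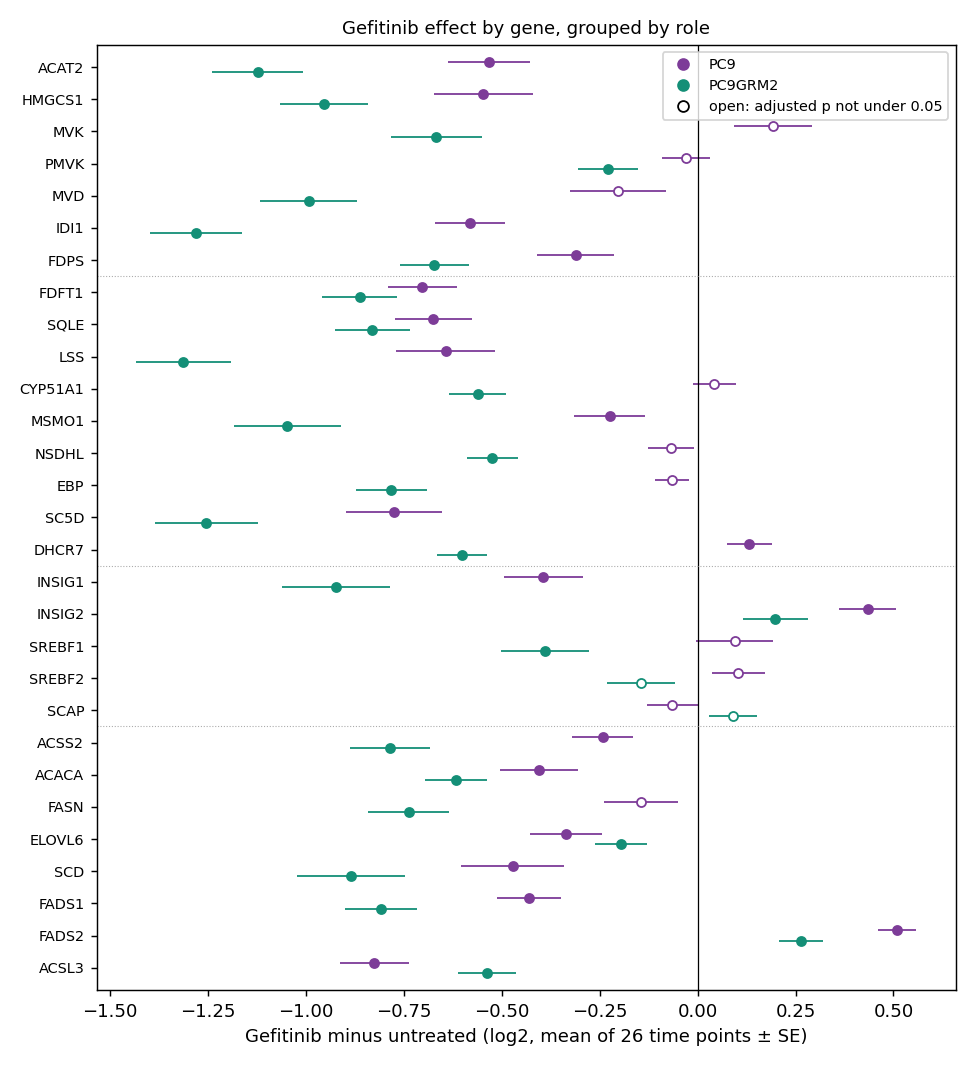
Mean log2 difference between the gefitinib and the untreated course for each of the 29 genes, grouped by role, in PC9 and in PC9GRM2. Points are means over 26 matched time points, bars are standard errors, and open points did not pass the test; in PC9GRM2 25 genes lie below 0 and pass, with LSS at -1.31, and FADS2 and INSIG2 lie above 0 in both lines.

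In PC9 the same contrast gave smaller differences. Gefitinib and untreated courses differed for 19 of 29 genes, 16 lower and 3 higher, while 72.3% of all tested genes passed, 37.2% lower and 35.1% higher. The share called among the 29 genes was thus below that of all genes, while their calls lay mostly on the lower side. The median was -0.24, against -0.02 over all genes, and 0 genes of the list were at least 2-fold lower, against 8.53% of all genes. By role, 4 of 7 mevalonate genes and 6 of 8 fatty acid genes were lower, and of the 9 genes from squalene to cholesterol 5 were lower and 1, DHCR7, was higher. DHCR7 was saturated in untreated PC9, and its sign turned under another background correction (-0.17), so it has no settled direction there. Without DHCR7 and FDPS the counts were 15 lower and 2 higher of 27. With time points 3 h apart 11 genes passed, and with the first 13 time points 10.

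ACSL3, which activates fatty acids on lipid droplets, had the lowest difference in PC9 (-0.83 ± 0.09, lower at 25 of 26 time points, limma adjusted p = 2.87e-09), with log2 signals of 10.66, 11.72 and 12.92 untreated and of 9.38, 10.92 and 12.37 with gefitinib. SC5D followed, at 11.73, 12.23 and 13.55 untreated and at 10.82, 11.53 and 12.12 with gefitinib (-0.77 ± 0.12). FDFT1 differed by -0.70 ± 0.09, SQLE by -0.68 ± 0.10, LSS by -0.64 ± 0.13 and IDI1 by -0.58 ± 0.09. The other LSS probes gave -0.64, -0.40 and, for the brightest, -0.17. Several enzymes that were lower in PC9GRM2 did not pass the test in PC9. These were CYP51A1 (0.04), EBP (-0.07), NSDHL (-0.07) and PMVK (-0.03), and MVD, FASN and MVK stood at -0.20, -0.14 and 0.19. The brighter MVK probe gave 0.44, and MVK was called higher in PC9 under 3 alternative settings. For SCD and ACSS2 the value depended on the probe in both lines. In PC9 the probe used gave -0.47 and -0.24, and the probe with the highest mean gave 0.22 and 0.05. In PC9GRM2 the probe used gave -0.88 and -0.79, and the probe with the highest mean gave -0.33 and -0.31. In neither line did any of the 29 genes separate the gefitinib from the untreated course completely, which 1.58% of all tested genes did in PC9 and 0.836% in PC9GRM2.

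The difference between the lines was tested directly, as the gefitinib effect in PC9GRM2 minus that in PC9 at matched times. It passed for 21 of 29 genes, 20 more negative in PC9GRM2 and 1, ACSL3, more positive, while over all tested genes 34.0% passed, 17.0% on each side. The median was -0.46, against 0.01 over all genes. MVK (-0.86 ± 0.16), MSMO1 (-0.82 ± 0.13) and MVD (-0.79 ± 0.15) had the most negative values, and EBP was more negative in PC9GRM2 at 26 of 26 time points (-0.72 ± 0.09, limma adjusted p = 4.02e-07). SQLE (-0.15), FDFT1 (-0.16), ACACA (-0.21), ELOVL6 (0.14) and PMVK (-0.20), with the regulators INSIG2, SREBF2 and SCAP, did not pass. Of 47 probes to the 29 genes, 42 gave a negative and 5 a positive value. With time points 3 h apart 7 genes passed, and with the first 13 time points 8 passed. The values of DHCR7 and FDPS rest on PC9 arrays on which their probes were saturated, and without both 19 of 27 genes passed, 18 of them more negative.

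EGF changed few of these genes. Compared with untreated PC9 it raised 5 of 29, LSS (0.23), SCD (0.23), INSIG2 (0.18), FADS1 (0.14) and INSIG1 (0.11), while 25.6% of all tested genes passed, 11.3% higher and 14.3% lower. In PC9GRM2 SC5D alone passed (0.15, limma adjusted p = 0.047), against 9.12% of all genes, 4.09% higher and 5.03% lower. Without the time points of the 3 arrays that stood most apart 6 genes passed. Added to gefitinib, EGF changed 0 of 29 genes in PC9 by limma, where 3 had an unadjusted p under 0.05 and 0.0452% of all genes passed (0.0452% higher and 0% lower), and the t-test of the methods also called 0. In PC9GRM2 it lowered ACSS2 (-0.13, limma adjusted p = 0.0284), against 3.23% of all genes, 1.08% higher and 2.15% lower, a call that was lost without those time points.

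The arrays with EGF therefore give the gefitinib contrast a further time, on arrays that it does not share with the contrast above, though on the same slides. In PC9GRM2 the course with both agents differed from EGF alone for 28 of 29 genes, 26 lower and 2 higher, against 74.5% of all genes, 37.8% lower and 36.7% higher, and 8 genes were at least 2-fold lower, against 5.84% of all genes. They were SC5D (-1.48), IDI1 (-1.43), LSS (-1.38), ACAT2 (-1.24), MSMO1 (-1.22), HMGCS1 (-1.22), SQLE (-1.10) and SCD (-1.08). FADS2 (0.39) and INSIG2 (0.18) were again higher by the probes used. Here the INSIG2 call was lost under 5 alternatives, among them the mean of all probes and unpaired courses. In PC9 19 genes passed, 16 lower and 3 higher, against 78.9% of all genes, 39.9% lower and 39.0% higher. The 3 higher were FADS2 (0.59), INSIG2 (0.25) and SREBF1 (0.20). In PC9 the INSIG2 call was lost under 2 alternatives and that of SREBF1 under 3, with an adjusted p of up to 0.236 and 0.195 (limma). Unpaired courses and time points 3 h apart were among these for both genes.

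The gefitinib difference grew over the day. Its slope over time was negative for 19 of 29 genes in PC9GRM2 and positive for 0, where 41.0% of all genes had a slope that passed, 20.5% on each side. In PC9 16 slopes were negative and 0 positive, against 52.2% of all genes, 26.0% negative and 26.2% positive, and with time points 3 h apart 5 passed. SCD had the most negative slope in both lines, -0.08 log2 units per hour in PC9 and -0.09 in PC9GRM2, and the PC9 slope was 0.03 with its brightest probe. INSIG1 stood at -0.06 and -0.09, and LSS at -0.06 and -0.08. In PC9GRM2 the mean difference of LSS went from -0.64 over 0 to 5 h to -0.99, -1.53 and -2.07 over the next 3 windows, which ended at 11, 17 and 24 h. INSIG1 went from 0.02 to -0.81, -1.26 and -1.68 over the same windows. Not every gene followed this course. FADS2 stood at 0.23, 0.32, 0.43 and 0.11 in PC9GRM2. SCAP stood at 0.17, 0.18, -0.05 and 0.04 there, and ELOVL6 at 0.09, -0.44, -0.40 and -0.09.

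**Figure D2:**
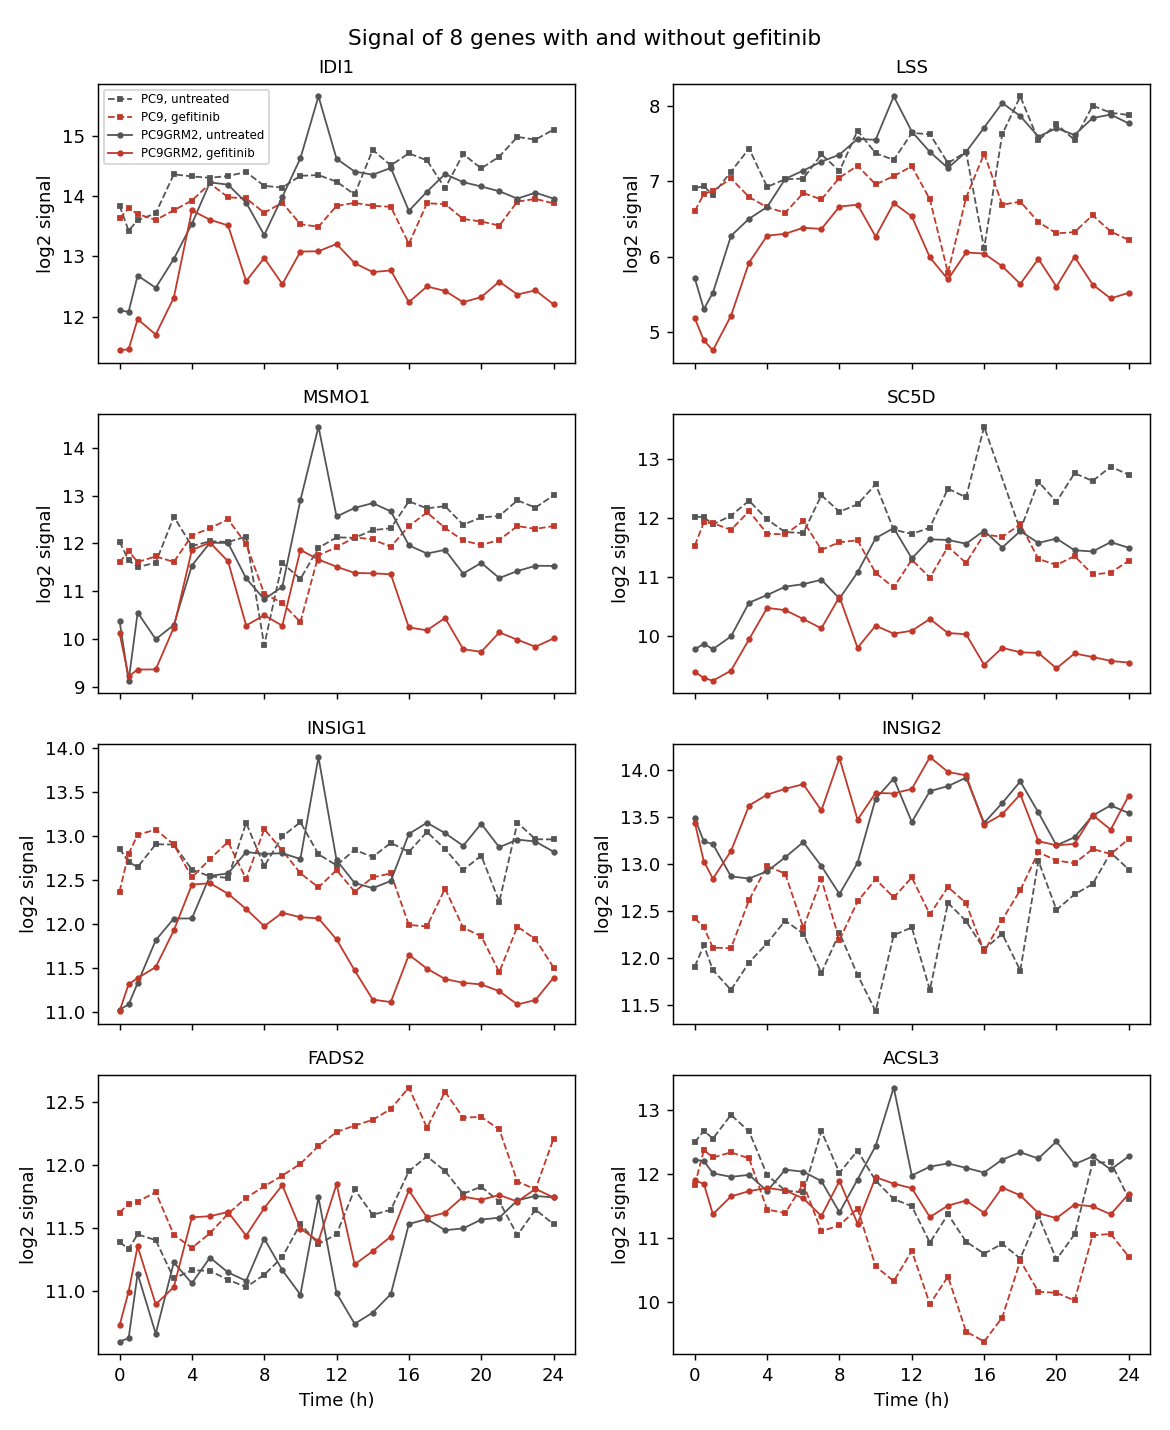
Log2 signal over 24 h of 8 of the genes (IDI1, LSS, MSMO1, SC5D, INSIG1, INSIG2, FADS2, ACSL3), 1 panel a gene, untreated in grey and gefitinib in red, PC9 as dashed lines with squares and PC9GRM2 as solid lines with circles, 1 array a point. In PC9GRM2 the gefitinib minus untreated differences of LSS and SC5D are -0.53 and -0.39 at 0 h and -2.25 and -1.95 at 24 h.

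For an overview, the log2 values of each gene were centred on its mean over all arrays and averaged over the 29 genes. In untreated PC9GRM2 this mean was -0.77 at 0 h, -0.86 at 0.5 h, 0.54 at its highest at 16 h and 0.30 at 24 h. With gefitinib it started at -0.89, came up to -0.04 at 5 h and was back at -0.64 at 24 h. Untreated PC9 started at 0.15 and ended at 0.46, and PC9 with gefitinib went from 0.11 to -0.06. The matched-time difference with gefitinib was -0.66 ± 0.35 (SD, n = 26) in PC9GRM2, below 0 at 26 of 26 time points, and -0.25 ± 0.21 in PC9, below 0 at 23 of 26. Over the 4 windows it was -0.18, -0.57, -0.93 and -0.99 in PC9GRM2 and -0.01, -0.17, -0.28 and -0.51 in PC9. Within scan days, the mean difference was below 0 on 9 of 9 days in PC9GRM2 and on 7 of 8 in PC9, where the remaining day gave 0.0697. The mean over all tested genes stayed between -0.23 and 0.11 on every array, which the quantile normalization across arrays largely sets.

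**Figure D3:**
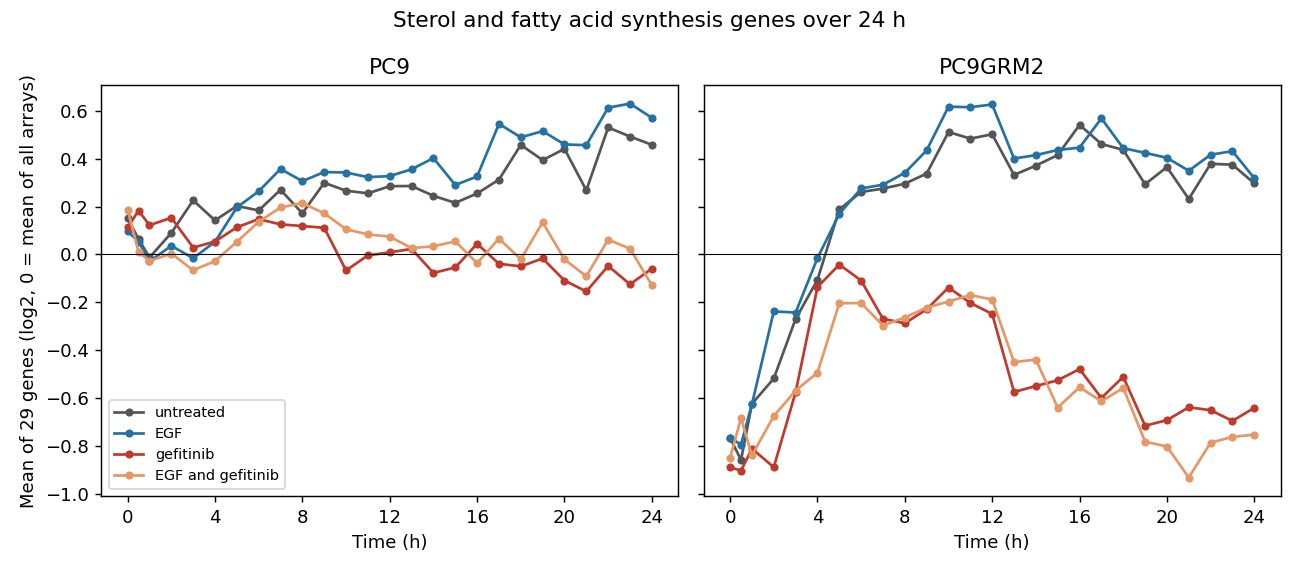
Mean of the 29 genes on each array, as log2 units from the mean of all 208 arrays, against time, with PC9 on the left and PC9GRM2 on the right and 1 line for each treatment. In PC9GRM2 all 4 lines start between -0.89 and -0.76, and only those without gefitinib are above 0 from 5 h on.

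The untreated courses themselves differed in how far these genes moved. Change over time passed the test for 27 of 29 genes in untreated PC9GRM2, all but PMVK and ACSL3, against 67.1% of all genes, and for 17 of 29 in untreated PC9, against 66.3%. Without the time points of the 3 arrays that stood most apart PMVK passed as well in PC9GRM2 (limma adjusted p = 4.25e-06). The arrays of a course were scanned nearly in the reverse order of their time points, so time and scan day cannot be told apart. With scan day as a random block 23 genes passed in PC9GRM2, where ACSS2, ELOVL6, SCAP and SREBF1 lost the call, and 12 passed in PC9, where EBP, HMGCS1, LSS, MVD and SREBF2 lost it. The median fitted range was 1.68 log2 units in PC9GRM2 and 0.77 in PC9, where all tested genes had medians of 0.98 in both. In PC9GRM2 MSMO1 spanned 2.91, MVK 2.64, HMGCS1 2.61, IDI1 2.48, SCD 2.47 and LSS 2.45 log2 units, each with its fitted minimum at 0 h. IDI1 rose from 12.10 at 0 h to 14.23 at 5 h and 14.62 at 12 h and stood at 13.96 at 24 h, while in PC9 it went from 13.84 to 14.30, 14.24 and 15.10 at the same hours. INSIG1 rose in PC9GRM2 from 11.03 to 12.55, 12.73 and 12.82, and its change in PC9 did not pass (limma adjusted p = 0.74). ACSL3 had the opposite order, with a fitted range of 1.87 in PC9, where its maximum was at 0 h, and of 0.48 in PC9GRM2.

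Between the lines, untreated cells differed for 20 of 29 genes, 8 higher and 12 lower in PC9GRM2, against 68.1% of all tested genes, 31.1% higher and 37.0% lower. With gefitinib they differed for 27, 5 higher and 22 lower, against 64.9%, 30.7% higher and 34.3% lower. The medians were -0.15 untreated and -0.63 with gefitinib, against -0.05 and -0.03 over all genes. The mean over the 29 genes was lower in untreated PC9GRM2 over the first window, from 0 to 5 h (-0.54), and stood at 0.12, 0.17 and -0.09 over the later 3, while with gefitinib it was lower at 26 of 26 time points, at -0.72, -0.28, -0.48 and -0.57. Untreated, 13 genes passed on a 3 h spacing, and a variance inflated for the likeness of successive time points left 12. With gefitinib, EBP lay between 13.03 and 14.28 in PC9GRM2 and between 14.88 and 15.54 in PC9 without overlap (-1.37 ± 0.09), with its probe saturated on 2 of the 26 PC9 arrays, SC5D between 9.24 and 10.66 against 10.82 to 12.12 (-1.64 ± 0.11), and ACSS2 between 8.59 and 9.75 against 9.92 to 11.20 (-1.47 ± 0.06). FDPS was also below throughout, but it changed sign untreated under another scaling (0.45), and the saturated PC9 probe gives only a bound. ELOVL6 was the gene of the list that lay wholly above, between 9.77 and 10.69 against 8.60 to 9.76 (1.11 ± 0.09). Over all genes 4.63% were apart in this way with gefitinib and 4.75% untreated.

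Among the regulators, INSIG2 was higher in PC9GRM2 at 26 of 26 time points both untreated (1.14 ± 0.10) and with gefitinib (0.91 ± 0.09), with medians of 13.44 against 12.25 untreated. SCAP was higher by 0.58 and 0.73, and SREBF2 was lower, at -0.68 and -0.93. FADS1 was higher by 1.03 and 0.66, but its other probe gave 0.22 and -0.10. ACSL3 was higher by 0.39 and 0.68, but its other probe gave -0.06 and 0.02. The ACSL3 call was lost under 4 alternatives untreated and under 3 with gefitinib. For HMGCS1, LSS and SCD the untreated line difference turned sign with the probe of highest mean, and DHCR7 has none that can be given a direction.

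**Figure D4:**
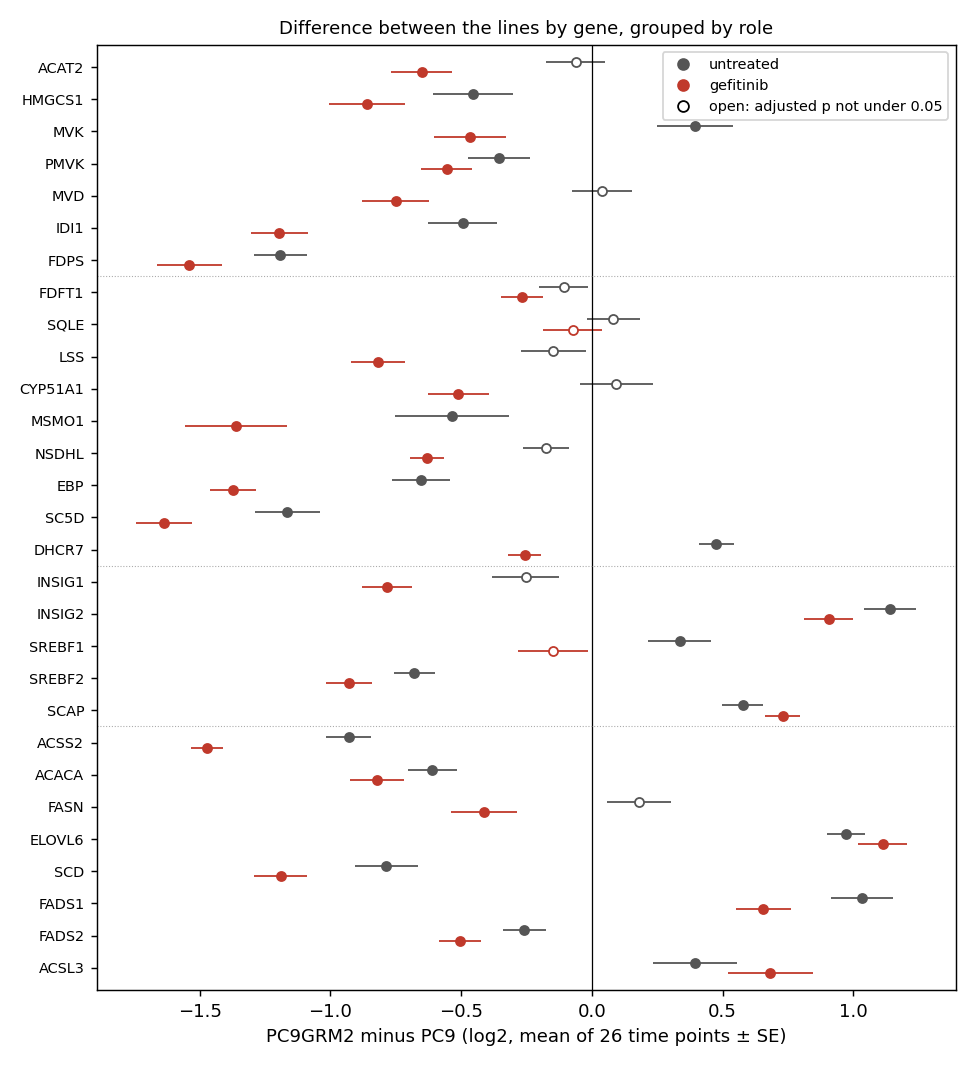
Mean log2 difference between PC9GRM2 and PC9 for each of the 29 genes, untreated in grey and with gefitinib in red, over 26 matched time points with standard errors as bars and open points for genes that did not pass the test. With gefitinib 22 genes lie below 0 and pass. By the probes used, INSIG2, SCAP, ELOVL6, FADS1 and ACSL3 lie above 0 in both conditions.

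Genes of neighbouring pathways were described by the same contrast of gefitinib with untreated cells. For comparison, 35.1% of all tested genes were higher and 37.2% lower in PC9, and 32.6% and 34.1% in PC9GRM2. The genes named here are among those called in both lines with a log2 difference of at least 1 in either direction in 1 line or more, so they are the larger differences of their lists. Of 7 other sterol synthesis and SREBP processing genes, 2 were higher and 3 lower in PC9, and 2 higher and 4 lower in PC9GRM2. Among them HSD17B7, a sterol reductase, differed by -0.75 and -1.04. Of 16 tested genes of fatty acid elongation and glycerolipid synthesis, 4 were higher and 9 lower in PC9, and 2 higher and 8 lower in PC9GRM2. Among the lower were the phosphatidate phosphatase LPIN1 (-0.69 and -1.37) and the acyl-CoA synthetase ACSL4 (-1.16 and -1.21). Of 13 genes of sterol efflux, storage and trafficking, 6 were higher and 2 lower in PC9, and 6 higher and 3 lower in PC9GRM2, with list medians of 0.14 and 0.04. Among the higher were the sterol transporters ABCA1 (1.62 and 1.83) and ABCG1 (1.71 and 1.48) and the ubiquitin ligase MYLIP (1.44 and 1.54), which are known targets of the liver X receptors, and among the lower SOAT1, which esterifies cholesterol for storage (-1.37 and -0.73). Of 12 tested fatty acid oxidation genes, 8 were higher and 1 lower in PC9, and 7 higher and 3 lower in PC9GRM2, with list medians of 0.25 and 0.19. Among the higher, PDK4, a kinase that shuts off pyruvate dehydrogenase, differed by 2.19 and 2.66.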

How the data were processed

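The 208 samples, 26 time points in each of 8 courses of 2 cell lines and 4 treatments, were grouped by the labels, which spell the drug gefinitib. The authors deposited signal intensities of each array as the scanner software (Feature Extraction 10.5.1.1, per the file headers) wrote them, background subtracted and spatially detrended, in linear units that were not normalized between arrays. A further deposited table, of intensities quantile normalized by the authors, served as an alternative. Here the scanner intensities of non-control features were quantile normalized across the arrays, and log2 was taken with values under 1 set to 1. Values that the scanner software marked as outlying were dropped (0.0792% of tested values), and repeated spots of a probe were combined as their mean. A RefSeq accession gave 24794 of 41000 probes a symbol, and the symbol table, of build GRCh38.p14, is newer than the array design. A gene was read from its probe with the largest variance, as in the methods, and was tested if this was well above background on 13 or more of the 26 arrays in some course.

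Treatments and lines were compared by the differences at matched time points with limma 3.58.1 in R 4.3.3 (two-sided moderated test, Benjamini-Hochberg adjustment over all tested genes, threshold 0.05), and change over time by its F-test of a natural spline with 4 degrees of freedom. The time point is the pairing, since the treatments of a line at a time point shared a slide. Successive differences were alike, with a median lag-1 correlation over the 29 genes of 0.357 for the gefitinib contrast in PC9 and 0.568 in PC9GRM2, so the p-values are too small to the extent that this matters, and a variance inflated for it and time points 3 h apart were among the alternatives. The others were scaling to the 75th percentile, normexp (offset 50) on the median signals, since the files hold no mean signal, and other probes, filters and floors. Parts of the courses, unpaired courses, scan day as a random block for change over time and the methods' t-test were used as well. Leaving out saturated genes, and the time points of the 3 arrays that stood most apart, was chosen after seeing the data. The tests of a treatment difference, the difference of effects, a slope and change over time were run on simulated data with independent noise. The steps before the tests and the likeness of successive time points were not simulated. The listed genes, the neighbouring lists and the tests were chosen with earlier results of these data known. All listed genes with a probe could be named. Of the neighbouring lists, genes called in both lines with a difference of at least 1 in either could be named. The number of arrays, 1 per time point of a course, limits the precision.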

Additional observations from a re-analysis of the deposited data

Results flagged for a closer look

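The results below were picked out because the gefitinib effect differed between the lines in a direct test of the difference (PC9GRM2 minus PC9, log2, limma with Benjamini-Hochberg adjustment over all tested genes, 26 matched time points). Among the mevalonate genes, the difference was -0.59 for ACAT2 (adjusted p = 2.93e-05), -0.41 for HMGCS1 (0.00224), -0.86 for MVK (0.000141), -0.79 for MVD (0.000136), -0.70 for IDI1 (5.69e-06) and -0.34 for FDPS (0.0121). The MVK value joins a PC9 effect of 0.19, which did not pass the test as reported but did under 3 alternatives (0.44 with the brighter probe), to a PC9GRM2 effect of -0.67. Among the genes from squalene to cholesterol, it was -0.67 for LSS (2.9e-05), -0.60 for CYP51A1 (1.22e-05), -0.82 for MSMO1 (2.41e-05), -0.46 for NSDHL (9.65e-05), -0.72 for EBP (4.02e-07), -0.46 for SC5D (0.000844) and -0.73 for DHCR7 (1.05e-08). DHCR7 and FDPS were saturated on most PC9 arrays.

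Among the regulators, the difference was -0.53 for INSIG1 (adjusted p = 0.000146) and -0.48 for SREBF1 (0.0131). Among the fatty acid genes, it was -0.54 for ACSS2 (9.01e-05), -0.59 for FASN (0.00203), -0.39 for SCD (7.38e-05), -0.38 for FADS1 (9.86e-05) and -0.25 for FADS2 (0.0053), which was higher with gefitinib in both lines. ACSL3 differed the other way, by 0.29 (0.025), and lost its call under 6 alternatives. The part of slide position, which is fixed for each treatment, and of scan period, which is separate for each line, was not tested and cannot be told apart from treatment and line.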

How the results depend on the processing

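The mean over the 29 genes kept its sign with gefitinib in all alternatives, from -0.41 to -0.09 in PC9 and from -0.96 to -0.36 in PC9GRM2. Over the genes and settings run, 5518 of 5869 checks kept direction and side of the threshold, 237 lost a call, 95 gained one and 19 turned sign. With time points 3 h apart, the genes called were 11 for gefitinib in PC9 (19 as reported), 1 for EGF in PC9 (5), 0 for EGF in PC9GRM2 (1), 0 for EGF with gefitinib in PC9GRM2 (1), 13 for the untreated lines (20), 7 for the difference of effects (21) and 5 for the slope in PC9 (16), where fewer time points were tested. With the first 13 time points they were 10 for gefitinib in PC9 and 8 for the difference of effects. With the inflated variance they were 3 for EGF in PC9, 0 for EGF in PC9GRM2 with or without gefitinib, and 12 for the untreated lines. With unpaired courses, which drop the pairing of time points as a replicate block, 0 genes were called for EGF in PC9, in PC9GRM2 and with gefitinib in PC9GRM2, and no other count moved by over 1.5 times.

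For EGF in PC9 the 75th percentile gave 9 and the probe of highest mean 3. For EGF in PC9GRM2, 2 genes were called with the 75th percentile, normexp, the deposited table and the mean of probes, 0 without a filter on dim genes, and 6 without the 11, 16 and 18 h time points. With gefitinib in PC9GRM2, EGF gave 0 with the probe of highest mean, the mean of probes, and without those time points. Causes were not tested.

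Signs turned as follows. At the 75th percentile, FDPS became 0.0608 for gefitinib in PC9 and 0.45 between the untreated lines. With normexp, DHCR7 became -0.17 and -0.25 in the same comparisons. With the probe of highest mean, gefitinib in PC9 gave 0.0536 for ACSS2 and 0.22 for SCD, gefitinib with EGF in PC9 gave 0.26 for SCD, the untreated lines gave 0.40 for HMGCS1, 0.39 for LSS and 0.64 for SCD, the lines with gefitinib gave -0.10 for FADS1 and 0.0886 for SCD, and the slopes in PC9 were 0.0023 for HMGCS1 and 0.029 for SCD. With the mean of probes, FADS2 became -0.0144 for gefitinib in PC9GRM2 and SCD 0.0142 between the untreated lines. With the first 13 time points, ACSS2 became 0.0271 and SCD 0.0577 for gefitinib in PC9, and ACSL3 -0.16 between the untreated lines.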
